A study of Mus musculus with 10 samples.

Results

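Peptide and amino acid transporters of the intestinal epithelium were followed across organoid cultures treated with a carcinogen, with tamoxifen or with both. They are 10 genes chosen by their known function (*Slc15a1*, *Slc6a19*, *Slc6a20a*, *Slc7a9*, *Slc3a1*, *Slc1a1*, *Slc7a7*, *Slc7a8*, *Slc3a2* and *Slc36a1*), with earlier results of these data already known. They were found by their gene name among the 47069 genes of the deposited table, and all 10 had a row and passed the filter on low counts. RNA-seq covered 10 libraries of C57BL/6 intestinal organoids at 50 days of culture in Matrigel with EGF, Noggin and R-spondin-1, with 2 libraries in each of 5 groups. Control received saline, DMBA received the polycyclic aromatic hydrocarbon carcinogen of that name, TAM short and TAM long received tamoxifen, called dosage-sensitive in their labels, and DMBA+TAM received both agents. The labels add Long to DMBA as well as to TAM long, short to TAM short, and neither word to control or DMBA+TAM. According to the methods of the study, all groups, controls included, shared a genotype with loxP-flanked *Ppp2r1a* (*Ppp2r1a* flox/flox) and the Lgr5-EGFP-CreERT2 allele, so that tamoxifen lets Cre delete *Ppp2r1a*, the scaffold subunit of PP2A, only in cells that express the stem cell gene Lgr5. What short and long mean, the doses, and whether 2 libraries of a group came from separate mice are not given in the sources used here, so p-values measure the spread between these libraries, which may be technical. Library titles of control and TAM short carry the letter S, those of DMBA and TAM long the letter L, and those of DMBA+TAM neither, so that the letter goes with the word short or Long in the 6 libraries whose labels hold one; the control titles carry the S without the word. The titles read NS, NL, DSS_S, DSS_L and Lgr5 (DMBA+TAM), and whether S and L stand for short and long or for small and large intestine is not stated; the colon and small intestine markers given below differ between S and L libraries. A difference in agent between S and L libraries cannot be told apart from whatever the letter and the word stand for.

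Dietary protein enters the absorptive cell of the intestine as small peptides and as free amino acids, and each route has its own carrier in the brush border. Some of these carriers work only as pairs, in which a heavy chain (*Slc3a1* or *Slc3a2*) brings a light chain of the Slc7 family to the membrane. Amino acids leave on the basolateral side toward the blood, largely through light chains bound to *Slc3a2*.

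The 8 libraries of control, DMBA, TAM short and TAM long held 8828247 to 10923673 counts, while both DMBA+TAM libraries were smaller, with 1592366 and 1915270. A gene with 3 counts in a library therefore stands at 0.259 to 0.379 CPM (counts scaled to library size and by TMM) in the former and at 1.32 to 1.58 CPM in the latter. *Ppp2r1a* had a log2 fold change of 0.37 in TAM long against control and of 0.06 in DMBA+TAM against control, and it was not lower than control in any treated group. It was -0.29 in DMBA+TAM against DMBA (adjusted p = 0.0575) and -0.31 in DMBA+TAM against TAM long (adjusted p = 0.0403). These counts cover all exons and do not check a deletion of some of them. Replicate libraries differed beyond counting noise in every group, by this measure least in TAM short (chi-square of 5.57 per degree of freedom) and most in DMBA (67.1). By Pearson's r of log2 CPM, the replicates of DMBA+TAM were the least alike (0.949), followed by those of DMBA (0.964). Marker lists differed between groups. Summed CPM of 10 epithelial markers was 19009 to 23097 in control and TAM short, 13565 to 15443 in DMBA and TAM long, and 22.9 to 33.3 in DMBA+TAM, where 6 of the 10, *Epcam* and *Vil1* among them, had 3 counts or fewer in both libraries. There, 10 fibroblast markers summed to 34323 to 34964 CPM against 745 to 2490 elsewhere, and 8 macrophage markers to 6956 to 7354 against 210 to 403. Fibroblast markers were also called higher than in control in DMBA (9 of 10) and in TAM long (6, with 1 lower). The DMBA+TAM libraries thus go against their description as intestinal organoids in their epithelial markers. Of 10 small intestine markers, the sum was 23653 to 24642 in control and 14440 to 15571 in TAM short, but 304 to 699 in DMBA, 883 to 943 in TAM long and 20.6 to 20.7 in DMBA+TAM; 6 colon markers summed to 19.4 to 23.4 in control, 43.3 to 67.6 in TAM short, 2116 to 6713 in DMBA, 4043 to 11868 in TAM long and 5.81 to 6.61 in DMBA+TAM. Of 6 smooth muscle markers, all 6 rose in DMBA and in TAM long against control and none passed in TAM short, with sums of 7160 to 12836 CPM in DMBA and TAM long and 1209 to 2280 in control and TAM short. Of 8 markers of enteric neurons and glia, 6 rose in DMBA and 5 in TAM long. Within the small intestine list, *Fabp6*, the ileal bile acid binding protein, had 25 and 2 counts in control and 69451 and 71046 in TAM short, where it made up 7847 and 8965 CPM of the sum; 6 of the 10 markers were called lower in TAM short and 1 higher (median log2 fold change -2.14). *Gata4*, a transcription factor of the proximal small intestine, had 1203 and 1269 counts in control and 327 and 108 in TAM short. In bulk RNA, fewer cells of a type and less RNA per cell cannot be told apart, and the part that these markers have in the results below was not tested.

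Promoters are shown for the members with the highest counts in control, *Slc15a1* and *Slc6a19*, and for *Slc3a1*, the heavy chain whose promoter matched 2 of 4 motifs searched. The 250 bases before the RefSeq start site on GRCm38.p6 are printed 5′ to 3′ on the strand of the gene, none of them exonic in GENCODE, in lower case with motif matches in capitals. The windows are chr14:121505255-121505504 (minus strand) for *Slc15a1*, chr13:73692637-73692886 (minus strand, inside the longer gene span listed for *Slc6a19*) and chr17:85028097-85028346 (plus strand) for *Slc3a1*.
Slc15a1: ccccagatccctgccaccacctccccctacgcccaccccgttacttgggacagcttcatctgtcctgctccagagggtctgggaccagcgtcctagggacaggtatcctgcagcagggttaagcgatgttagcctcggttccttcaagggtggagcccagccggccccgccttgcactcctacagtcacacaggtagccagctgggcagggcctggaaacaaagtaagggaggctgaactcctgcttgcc
Slc6a19: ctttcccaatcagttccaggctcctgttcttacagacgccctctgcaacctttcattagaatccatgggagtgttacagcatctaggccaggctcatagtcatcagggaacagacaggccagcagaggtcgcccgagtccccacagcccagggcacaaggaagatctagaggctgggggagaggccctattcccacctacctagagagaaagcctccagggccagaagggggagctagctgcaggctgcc
Slc3a1: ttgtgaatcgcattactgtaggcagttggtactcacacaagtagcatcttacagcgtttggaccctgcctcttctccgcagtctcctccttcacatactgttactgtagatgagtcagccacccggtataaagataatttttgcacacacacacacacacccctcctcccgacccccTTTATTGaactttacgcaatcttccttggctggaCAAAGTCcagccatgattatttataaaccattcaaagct

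The capitals in *Slc3a1* are the CDX core TTTATNG at 73 bases and the HNF4 motif CAAAGTC at 39 bases before the start, which do not overlap; CDX and HNF4 proteins are transcription factors of the absorptive lineage. *Slc15a1* and *Slc6a19* held neither of these nor the HNF1 motif GTTAAT or the ATF4 element TGATGNA on either strand. Over the first promoter of all 10 members, TTTATNG was found in 1 (*Slc3a1*), against 10.2% of 27025 mouse promoters of this length. CAAAGTC was found in 2 (*Slc3a1* and *Slc7a7*), against 3.8%. GTTAAT was found in 2 (*Slc6a20a* and *Slc36a1*), against 6.52%, and TGATGNA in 1 (*Slc7a7*), against 10.6%. A match describes letters in a window and is not a measured binding site.

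**Figure D1:**
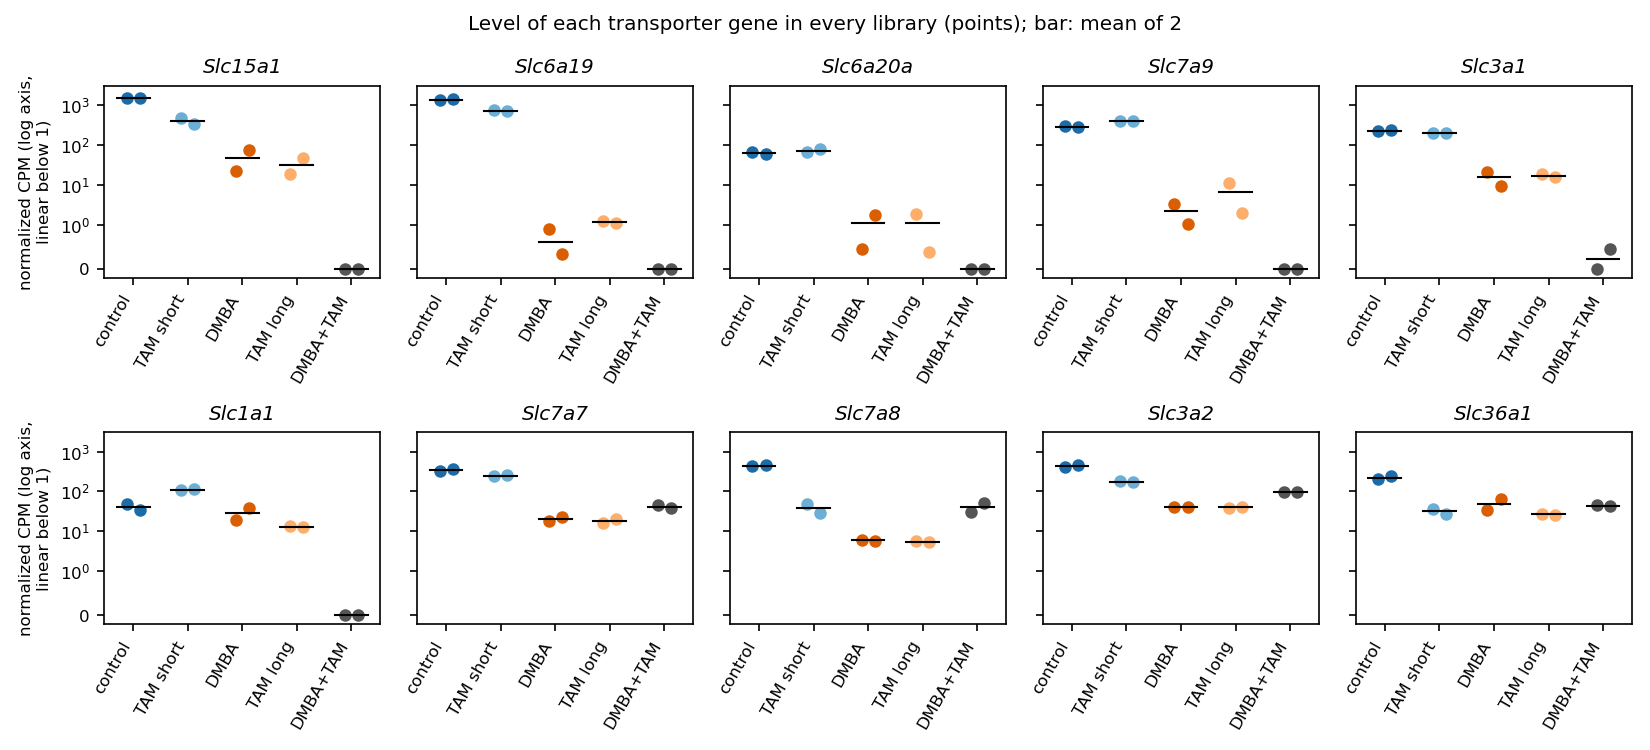
Normalized CPM (log axis, linear below 1) of each of the 10 transporter genes, with 1 point for each library and a bar at the mean of 2, for control, TAM short, DMBA, TAM long and DMBA+TAM. *Slc15a1*, *Slc6a19*, *Slc6a20a*, *Slc7a9* and *Slc1a1* sit at 0 in both DMBA+TAM libraries, while *Slc7a7*, *Slc7a8*, *Slc3a2* and *Slc36a1* sit between 31.1 and 97.1 there.

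The combined level of the 10 transporters was highest in control, lower in TAM short and lowest in the other groups. Their summed CPM was 4811 and 5060 in control, 2491 and 2297 in TAM short, 165 and 257 in DMBA, 153 and 170 in TAM long, and 219 and 227 in DMBA+TAM. No library of control or TAM short overlapped with any library of the other 3 groups, which lay close to each other. Per kilobase of listed gene length, *Slc15a1* was the highest of the group in control, at 488 ± 7.75 CPM per kilobase (SD, n = 2), followed by *Slc6a19* at 324 ± 13.1; *Slc7a7* (153 ± 11.8) and *Slc3a2* (152 ± 11.9) did not differ beyond their spread on these lengths, and *Slc1a1* was the lowest at 10.8 ± 2.62. The deposited FPKM rest on other lengths for 7 of the 10, and with those lengths *Slc6a19* (666 ± 26.9) came before *Slc15a1* and *Slc3a2* (421 ± 32.9) lay above *Slc7a7* (297 ± 23.0). In DMBA+TAM, *Slc3a2* was the highest on either length, at 34.5 ± 0.0506 CPM per kilobase by the listed length.

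*Slc15a1* (ENSMUSG00000025557; chromosome 14, 121459621 to 121505254, GRCm38) encodes the proton-coupled carrier that takes up di- and tripeptides across the brush border. It had 1508 and 1542 CPM in control, 469 and 325 in TAM short, 22 and 74.6 in DMBA, 18.6 and 45.9 in TAM long, and no count in either DMBA+TAM library. Every treated library was below both control libraries, and DMBA and TAM long overlapped with each other. Against control, *Slc15a1* had a log2 fold change, given with its standard error, of -4.99 ± 0.62 in DMBA (adjusted p = 0.000258), -5.57 ± 0.64 in TAM long (adjusted p = 0.000173) and -1.94 ± 0.54 in TAM short (adjusted p = 0.0458). Adjusted p-values here and below come from the quasi-likelihood test of edgeR and were adjusted by Benjamini-Hochberg over 16179 genes. The TAM short call did not hold with DESeq2 (adjusted p = 0.0632), nor without any single library of its comparison. In DMBA+TAM it lay at least 1050-fold below control, counted against 3 counts in each library.

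*Slc6a19* (ENSMUSG00000021565; chromosome 13, 73679745 to 73704865) encodes the sodium-dependent carrier of neutral amino acids in the brush border. Its counts were 11673 and 11602 in control, 6668 and 5562 in TAM short, 10 and 3 in DMBA, 14 and 11 in TAM long, and 0 in both DMBA+TAM libraries. *Slc6a19* had the largest fall of the 10 genes in both DMBA and TAM long. It was 1.87-fold lower in TAM short (log2 fold change -0.90 ± 0.17, adjusted p = 0.00966), a call lost without any single library of that comparison. It was 2209-fold lower in DMBA, a ratio that rests on 13 counts in all, 1187-fold lower in TAM long, and at least 935-fold lower in DMBA+TAM.

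*Slc6a20a* (ENSMUSG00000036814; chromosome 9, 123636122 to 123678885) encodes a carrier of proline and related imino acids. It had 66.4 and 59.1 CPM in control, 65.2 and 78.4 in TAM short, 0.447 and 1.8 in DMBA, 1.81 and 0.393 in TAM long, and no count in DMBA+TAM. Control and TAM short overlapped (log2 fold change 0.19 ± 0.34, adjusted p = 0.769), while all libraries of the other 3 groups lay below both. The log2 fold change was -5.87 ± 0.50 in DMBA and -5.77 ± 0.49 in TAM long, and the gene was at least 43.2-fold lower in DMBA+TAM. Its counts are uncertain, since 15.3% of its 50-base sequences are shared with the tandem copy *Slc6a20b* and 14.3% of its exonic bases overlap exons of other genes, and the library kit is not stated to keep strand.

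*Slc7a9* (ENSMUSG00000030492; chromosome 7, 35448796 to 35466036) and *Slc3a1* (ENSMUSG00000024131; chromosome 17, 85028347 to 85064243) encode the light and heavy chain of the brush border exchanger of cystine and cationic amino acids. *Slc7a9* had 290 and 281 CPM in control, 395 and 399 in TAM short, 3.3 and 1.01 in DMBA, 11.2 and 1.97 in TAM long, and no count in DMBA+TAM. *Slc3a1* had 221 and 234 CPM in control, 195 and 197 in TAM short, 21.3 and 9.32 in DMBA, 18.5 and 15.3 in TAM long, and 0 and 1 counts in DMBA+TAM. The light chain lay above control in both TAM short libraries and the heavy chain below, and neither difference passed the test (log2 fold changes of 0.48 ± 0.49 and -0.21 ± 0.27, adjusted p = 0.582 and 0.659). Against control, *Slc7a9* had a log2 fold change of -6.98 ± 0.69 in DMBA and -5.41 ± 0.62 in TAM long, and *Slc3a1* of -3.87 ± 0.31 and -3.75 ± 0.31. Both were lower in DMBA+TAM, by at least 196-fold and 157-fold.

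The balance of this pair differed between groups. Per kilobase of listed length, *Slc7a9* stood at 1.45 and 1.33 times *Slc3a1* in control and at 2.24 times in both TAM short libraries. It stood at 0.171 and 0.12 times *Slc3a1* in DMBA and at 0.672 and 0.142 times in TAM long. The ratios of DMBA and TAM long lay below those of control and TAM short also with the lengths behind the FPKM (0.175 to 0.981 against 1.94 to 3.27). The 2 TAM long libraries differed widely, and this ratio was not tested. Exons of *Slc3a1* overlap those of *Prepl* over 26.5% of their bases.

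*Slc1a1* (ENSMUSG00000024935; chromosome 19, 28835049 to 28913960) encodes the high-affinity carrier of glutamate and aspartate. It departed from the other members in TAM short and in DMBA. Its level was 48.2 and 34.1 CPM in control, 108 and 114 in TAM short, 19.4 and 38.1 in DMBA, 13.4 and 12.5 in TAM long, and 0 in both DMBA+TAM libraries. TAM short was the highest group and TAM long the lowest with any count, and DMBA overlapped control. It rose in TAM short (log2 fold change 1.43 ± 0.28, adjusted p = 0.0113), the only member to do so, though the call was lost without control replicate 2 (adjusted p = 0.124) and without either TAM short library. It fell in TAM long (-1.67 ± 0.30, adjusted p = 0.00196). In DMBA the log2 fold change was -0.53 ± 0.28 (adjusted p = 0.16), which became -1.09 (adjusted p = 0.00385) without DMBA replicate 2. DMBA+TAM lay at least 28.3-fold below control. Of its exonic bases, 31.9% overlap the gene *4430402I18Rik*, with which reads cannot be told apart where strand is not kept.

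*Slc3a2* (ENSMUSG00000010095; chromosome 19, 8706882 to 8723369) encodes the heavy chain of the basolateral exchangers, also known as CD98. It had 404 and 452 CPM in control, 181 and 170 in TAM short, 40.5 and 40.4 in DMBA, 39.4 and 41.7 in TAM long, and 97.1 and 96.9 in DMBA+TAM. Replicates lay close together in every group, and only DMBA and TAM long overlapped. The log2 fold change against control was -1.29 ± 0.11 in TAM short, -3.40 ± 0.12 in both DMBA and TAM long, and -2.14 ± 0.11 in DMBA+TAM, each past the threshold. DMBA+TAM was higher than DMBA (1.26 ± 0.11, adjusted p = 9.16e-06) and than TAM long (1.26 ± 0.11, adjusted p = 8.4e-06).

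*Slc7a7* (ENSMUSG00000000958; chromosome 14, 54369442 to 54417780) encodes the light chain that exports cationic amino acids in exchange for neutral ones. Its level was 328 and 366 CPM in control, 241 and 255 in TAM short, 17.7 and 23.4 in DMBA, 16.5 and 19.9 in TAM long, and 45.9 and 37.4 in DMBA+TAM. Both TAM short libraries were below both control libraries, but the difference did not pass the test (log2 fold change -0.49 ± 0.15, adjusted p = 0.0641; DESeq2 gave an adjusted p of 0.0273). The falls in DMBA (-4.08 ± 0.18), TAM long (-4.26 ± 0.18) and DMBA+TAM (-3.06 ± 0.18) passed it, and DMBA+TAM lay above DMBA by 1.02 ± 0.18 and above TAM long by 1.20 ± 0.18. Exons of *Oxa1l* overlap 7% of the exonic bases of *Slc7a7*.

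*Slc7a8* (ENSMUSG00000022180; chromosome 14, 54722216 to 54781886) encodes a light chain for neutral amino acids. It had 422 and 458 CPM in control, 47.6 and 28.6 in TAM short, 6.07 and 5.73 in DMBA, 5.69 and 5.31 in TAM long, and 31.1 and 49.8 in DMBA+TAM. Of the 10 members it had the largest fall in TAM short, 11.6-fold (log2 fold change -3.53 ± 0.25, adjusted p = 3.63e-05). It was 74.6-fold lower in DMBA and 80-fold lower in TAM long. DMBA+TAM was 6.86-fold above DMBA (2.78 ± 0.29, adjusted p = 2.38e-05) and 7.36-fold above TAM long (2.88 ± 0.29, adjusted p = 1.74e-05), and its libraries overlapped those of TAM short.

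The light chains that share *Slc3a2* were compared within each library per kilobase of listed length. *Slc7a7* and *Slc7a8* together made up 97.9% and 98.5% of the level of 5 light chains (*Slc7a5*, *Slc7a6*, *Slc7a7*, *Slc7a8* and *Slc7a11*) in control and 94.7% and 94.6% in TAM short. The share was 53.9% and 52.5% in DMBA, 57.8% and 60.3% in TAM long, and 59.3% and 58.6% in DMBA+TAM. It lay below that of control and TAM short in all 6 libraries of these groups, and also with the lengths behind the FPKM, at 55.3% to 63.8% against 94.4% to 98.3%. Within the pair, *Slc7a8* held 41.2% and 40.8% of the 5 in control but 9.51% and 5.66% in TAM short. With the lengths behind the FPKM, *Slc7a8* held 26.5% and 26.1% in control and 5.12% and 3.00% in TAM short. *Slc7a5*, the light chain typical of proliferating cells, and *Slc7a6* rose in DMBA+TAM against control (log2 fold changes of 1.85 ± 0.24 and 2.28 ± 0.26, adjusted p = 8.17e-05 and 2.92e-05). Both also rose in DMBA (0.72 and 1.05, adjusted p = 0.0254 and 0.00593), and neither passed in TAM long (0.25 and 0.60, adjusted p = 0.396 and 0.0719). These shares were not tested.

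**Figure D2:**
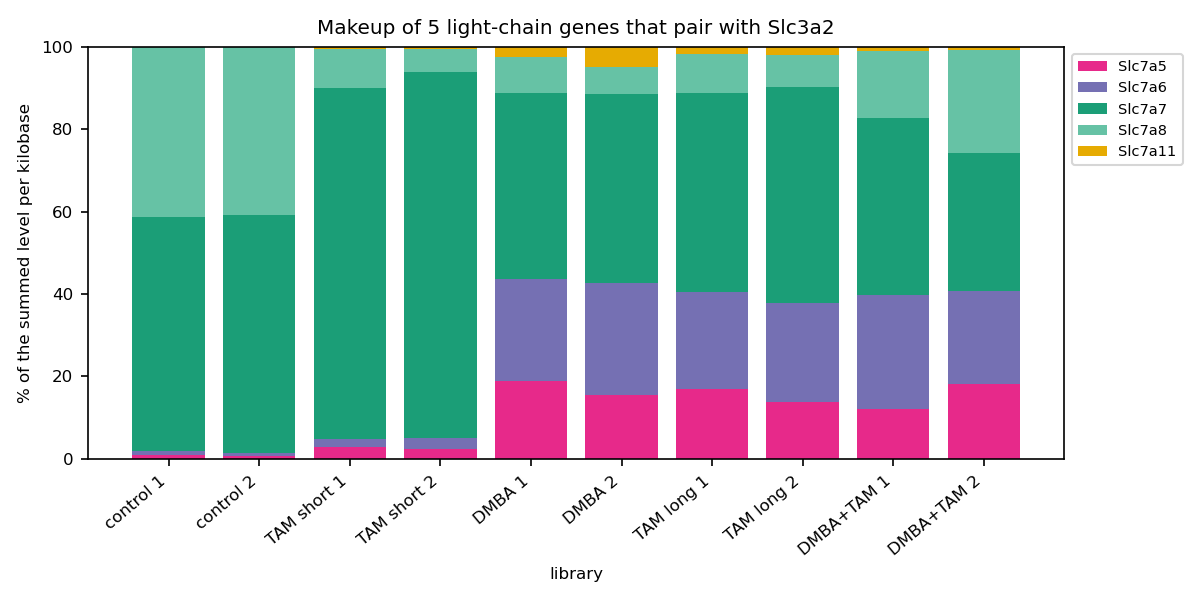
Share of 5 light-chain genes in their summed level per kilobase of listed length (y axis, %), 1 bar for each of the 10 libraries. *Slc7a7* and *Slc7a8* fill 94.6% to 98.5% of the bars of control and TAM short and 52.5% to 60.3% of the bars of DMBA, TAM long and DMBA+TAM.

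*Slc36a1* (ENSMUSG00000020261; chromosome 11, 55204350 to 55236330) encodes a proton-coupled carrier of small amino acids such as glycine and proline, found in the brush border and in lysosomes. It had 203 and 237 CPM in control, 36.9 and 27.8 in TAM short, 33.4 and 62.8 in DMBA, 27 and 26 in TAM long, and 44.3 and 42.3 in DMBA+TAM. All treated groups lay within 26 to 62.8 CPM, below control. Unlike *Slc15a1* and *Slc6a19*, it was about as low in TAM short (log2 fold change -2.76 ± 0.26, adjusted p = 0.000186) as in TAM long (-3.05 ± 0.27), and the difference between these groups was -0.29 ± 0.26 (adjusted p = 0.398). The fall was -2.20 ± 0.26 in DMBA and -2.34 ± 0.27 in DMBA+TAM.

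Which transporters differed from control was counted for each treatment. In DMBA, 9 of 10 fell and none rose, against 23.3% of all 16179 genes tested that fell and 24.5% that rose; *Slc1a1* did not pass. In TAM long, 10 of 10 fell (22.8% of all genes fell and 23.2% rose). In TAM short, 5 fell (*Slc15a1*, *Slc6a19*, *Slc7a8*, *Slc3a2* and *Slc36a1*), 1 rose (*Slc1a1*) and 4 did not pass, with a background of 7.8% lower and 6.52% higher; with 1 library left out, 3 or 4 of the 6 calls passed. In DMBA+TAM, 10 of 10 fell (35.3% of all genes fell and 29% rose). The median log2 fold change of the members was -0.70 in TAM short, -4.54 in DMBA and -4.83 in TAM long, beside medians over all genes of -0.04, 0.07 and 0.05. In DMBA+TAM it was -5.13 with the 6 members at 3 counts or fewer set to their bound, beside -0.17 over all genes. These comparisons share the control libraries, and the members were chosen with earlier results of these data known. The counts beside the background are therefore a description. With 2 libraries against 2, the smallest p of an exact permutation test on 1 gene is 0.333, so each call uses a spread estimated jointly over genes and groups.

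**Figure D3:**
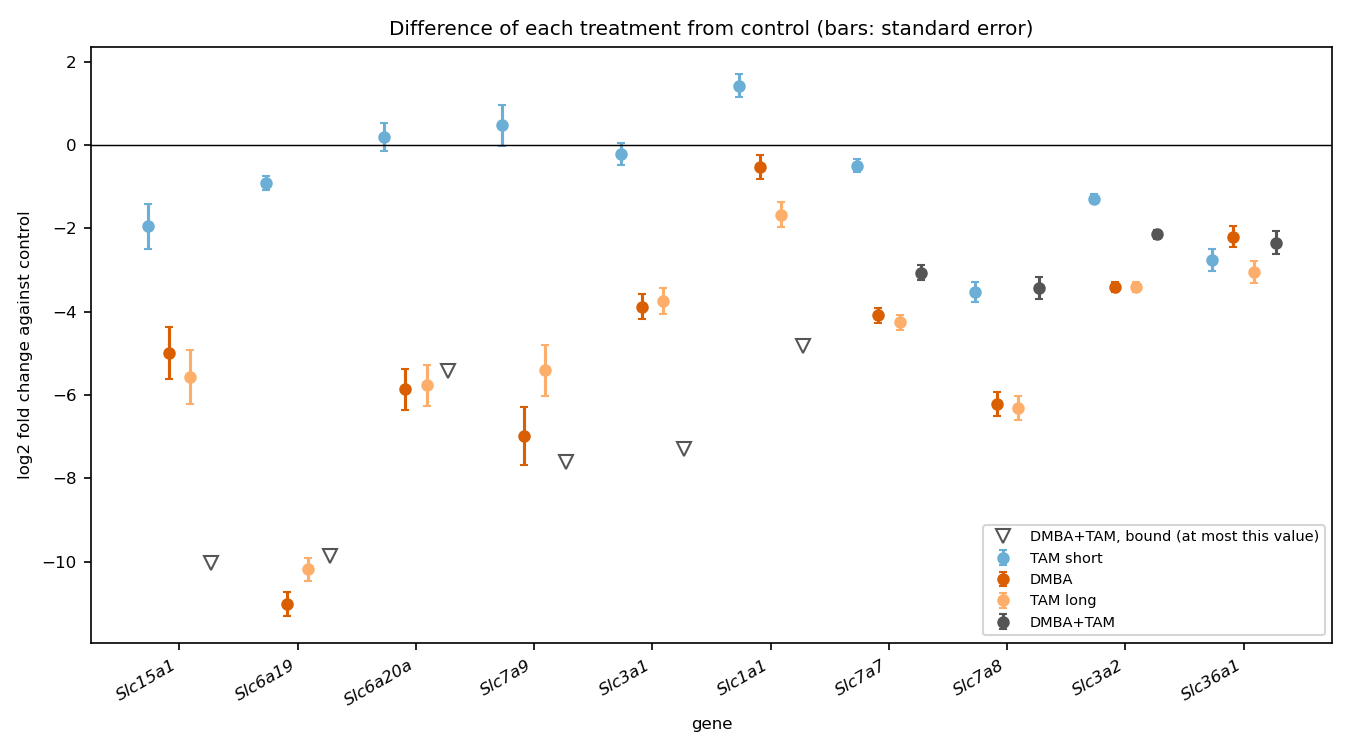
Log2 fold change against control (y axis) of each of the 10 genes (x axis) in TAM short, DMBA, TAM long and DMBA+TAM, with standard errors; open triangles are bounds for members with 3 counts or fewer in both DMBA+TAM libraries. TAM long lies below TAM short for all 10 genes and DMBA for 9, *Slc36a1* being the exception.

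Of the comparisons between libraries whose titles share a letter, TAM short against control (both with an S) had 5 lower and 1 higher, as above. Between TAM long and DMBA, both with an L, 0 of 10 members passed the edgeR test (1.46% of all genes were lower and 1.24% higher), while 2 were past 0.05 before adjustment. These were *Slc1a1* (log2 fold change -1.14 ± 0.30, adjusted p = 0.0818) and *Slc36a1* (-0.85 ± 0.26, adjusted p = 0.108). DESeq2 called these 2. Between TAM long and TAM short, which received the same agent and differ in the letter, 9 of 10 fell and none rose (20.3% of all genes lower and 22% higher), from -2.11 ± 0.11 for *Slc3a2* to -9.29 ± 0.26 for *Slc6a19*. The colon and small intestine markers differ between these groups as given above, and their part in the falls was not tested.

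In the DMBA+TAM libraries, 6 members had at most 1 count and 4 stayed detected. *Slc15a1*, *Slc6a19*, *Slc6a20a*, *Slc7a9* and *Slc1a1* had no count and *Slc3a1* had 0 and 1. The floor used here, 3 counts in a library, stands at 1.32 to 1.58 CPM in these libraries. The basolateral *Slc3a2*, *Slc7a7* and *Slc7a8* had 59 to 220 counts, and *Slc36a1*, a carrier of brush border and lysosome, had 84 and 96. Against DMBA, 4 members were lower and 3 higher (29.9% of all genes lower and 25.2% higher). Against TAM long, 5 were lower and 3 higher (29.9% lower and 25.3% higher). Both counts against DMBA, and the count of higher members against TAM long, lie near these shares of all genes. The 3 higher were *Slc3a2*, *Slc7a7* and *Slc7a8* in each. Among the lower calls, *Slc6a19* had 10 and 3 counts in DMBA and 14 and 11 in TAM long, levels under the value of 3 counts in DMBA+TAM, so its difference was not detectable at this depth. Against TAM short, 8 were lower and none higher (33.8% lower and 29.3% higher), with *Slc7a8* (0.09 ± 0.25) and *Slc36a1* (0.42 ± 0.28) not past the threshold.

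Macrophage, fibroblast, fat cell and endothelial markers rose with these 3 genes. All 8 macrophage markers and all 10 fibroblast markers were called higher in DMBA+TAM than in DMBA and than in TAM long, and so were all 5 fat cell markers, which summed to 1322 and 3054 CPM in DMBA+TAM against 44.1 to 195 in the other libraries. All 4 endothelial markers were called higher in both comparisons as well. Smooth muscle markers went the other way, with 6 of 6 lower in both. None of the macrophage, fibroblast, fat cell and endothelial markers was at 0 in DMBA+TAM. Their part in the levels of *Slc3a2*, *Slc7a7* and *Slc7a8* was not tested.

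**Figure D4:**
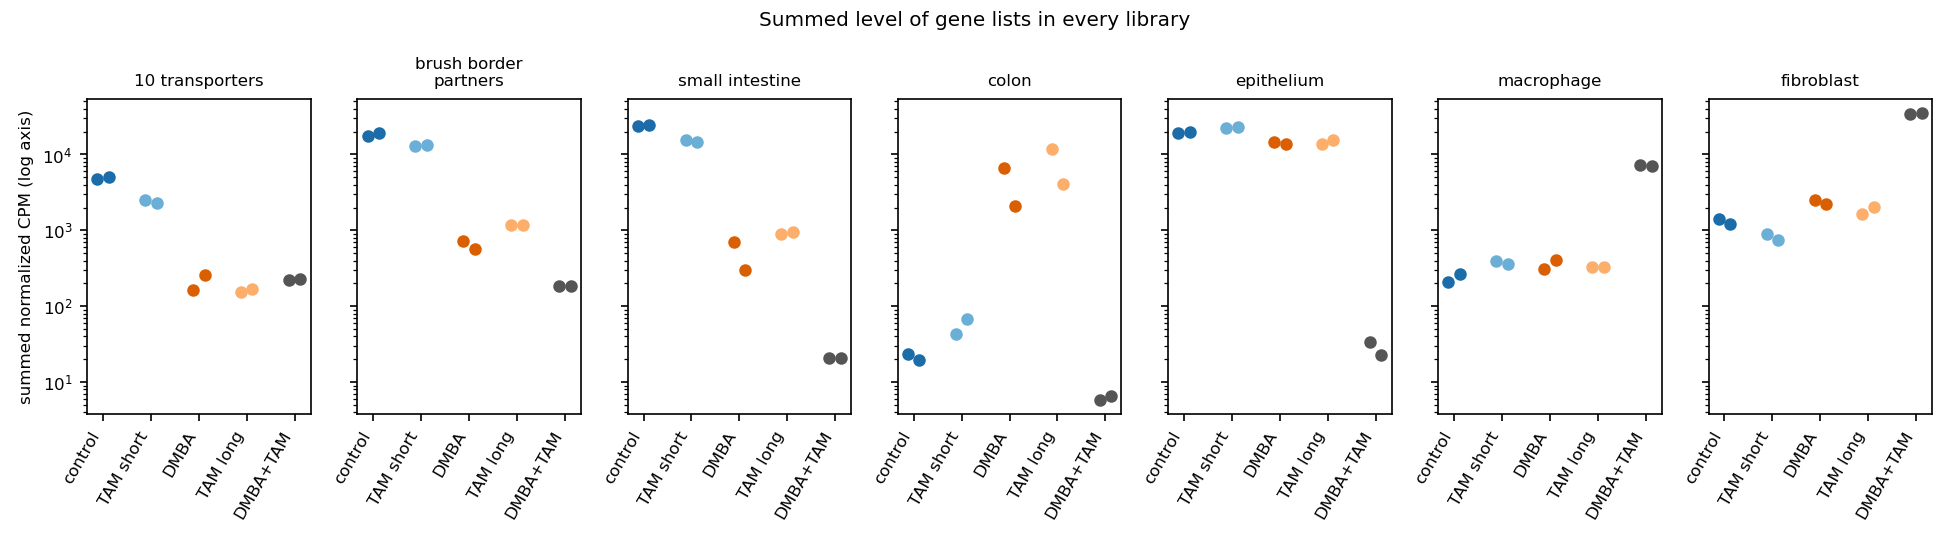
Summed normalized CPM (log axis) of the 10 transporters, 9 brush border partners, and markers of small intestine, colon, epithelium, macrophage and fibroblast, with 1 point for each library. The transporter and small intestine sums are both higher in control and TAM short than in DMBA and TAM long, and in DMBA+TAM the transporter sum stays at 219 to 227 where epithelial markers sum to 22.9 to 33.3.

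An interaction of DMBA with TAM long was taken as the difference between DMBA+TAM and TAM long less that between DMBA and control. Its groups differ also in the letter of their titles and in their markers, so an effect of DMBA cannot be told apart from these. Across all genes, 48.2% passed in either direction, and 5 of 10 members did, a share near this background. The interaction was positive and passed for 8 of 8 macrophage and 9 of 10 fibroblast markers. *Slc7a8* had a log2 interaction of 9.10 ± 0.40, *Slc7a7* of 5.28 ± 0.25, *Slc3a2* of 4.66 ± 0.16 and *Slc36a1* of 2.90 ± 0.38, all positive. For these 4 genes DMBA lay far below control, while the mean of DMBA+TAM lay above that of TAM long, though for *Slc36a1* this last difference did not pass (0.71 ± 0.28, adjusted p = 0.0543). *Slc1a1* passed in the negative direction (adjusted p = 0.00195), with no count in DMBA+TAM.

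Other amino acid and peptide transporters did not move as one. Of 22 listed, 21 were tested; 13 rose and 7 fell in DMBA, 8 rose and 7 fell in TAM long, 5 rose and 2 fell in TAM short, and 7 rose and 6 fell in DMBA+TAM, each against control. Over all genes, 6.52% rose and 7.8% fell in TAM short, 24.5% and 23.3% in DMBA, 23.2% and 22.8% in TAM long, and 29% and 35.3% in DMBA+TAM, so that the DMBA+TAM counts lie near the background. *Slc6a14*, a broad carrier of neutral and cationic amino acids of the distal intestine, had 2 and 2 counts in control, 140 and 250 in TAM short, 5511 and 5208 in DMBA, 12678 and 8300 in TAM long, and 1 and 2 in DMBA+TAM. It was thus at least 1538-fold higher in DMBA and at least 2725-fold higher in TAM long than in control, opposite to *Slc6a19*. *Slc15a2*, the peptide carrier related to *Slc15a1*, had 3 and 2 counts in control, 202 and 195 in TAM short, 27 and 23 in DMBA and 707 and 479 in TAM long, so that it was at least 154-fold higher in TAM long. *Slc43a2*, a basolateral carrier of neutral amino acids, fell with the members, from 909 and 999 CPM in control to 391 and 400 in TAM short, 24.5 and 21.6 in DMBA, 13.8 and 10.4 in TAM long and 94 and 92.5 in DMBA+TAM. *Slc7a2*, a cationic amino acid carrier, was high only in DMBA+TAM among these groups, with 79 and 88 counts there and 5 to 13 in the 8 deeper libraries (log2 fold change 5.81 ± 0.39 against control, adjusted p = 8.23e-07).

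Of 9 brush border partners and peptidases, 8 were tested. In DMBA 6 fell and 1 rose, in TAM long 6 fell and 2 rose, in TAM short 1 fell and 1 rose, and in DMBA+TAM 8 fell. *Anpep*, the aminopeptidase N that frees amino acids from peptides, went from 78181 and 88686 counts in control and 51410 and 50956 in TAM short to 55 and 76 in DMBA, 78 and 51 in TAM long and 147 and 137 in DMBA+TAM. *Slc9a3*, the sodium-proton exchanger that restores the proton gradient used by *Slc15a1*, rose in DMBA (log2 fold change 1.74 ± 0.16) and in TAM long (1.46 ± 0.16), opposite to most members, but fell in TAM short (-0.88 ± 0.16, adjusted p = 0.00764) and had no count in DMBA+TAM. Of 10 genes of the amino acid response, which cells switch on when amino acids run short, none rose in TAM short, DMBA or TAM long, while 3, 6 and 8 fell; 2 rose and 5 fell in DMBA+TAM, near the shares of all genes given above. *Asns*, asparagine synthetase, had 76 and 68.2 CPM in control and 26.5 and 34.1 in TAM long (-1.25, adjusted p = 0.000174).

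For members other than *Slc1a1* the genes with the most similar pattern were found by Pearson's r of log2 CPM over the 10 libraries, a description in which the points share 5 groups of 2 and differ in depth. *Slc15a1* was closest to *Mgam*, a brush border enzyme that digests starch (r = 0.995), and *Slc6a19* to the chemokine gene *Ccl25* (0.997). *Slc7a9* was closest to *Mmp7* (0.994), *Slc3a1* to *Tm6sf2* (0.997), with *Prepl*, whose exons overlap its own, at 0.994, and *Slc6a20a* to *Hnrnpf* (0.992). *Slc7a7* was closest to *Lyz1* (0.997), with *Anpep* also at 0.996, *Slc3a2* to *Slc16a10* (0.997), a basolateral carrier of aromatic amino acids, and *Slc7a8* to *Gosr2* (0.989). *Slc36a1* had no gene above 0.949 (*Os9*). Among the members, the r of *Slc3a2* with its light chains was 0.959 for *Slc7a7* and 0.968 for *Slc7a8*, and that of *Slc3a1* with *Slc7a9* was 0.947. *Slc3a1* was closer to *Slc15a1* (0.967), and *Slc7a9* to *Slc6a20a* (0.974) and *Slc6a19* (0.969), than to each other. The r of *Slc1a1* was 0.928 with both *Slc15a1* and *Slc3a1*, 0.818 with *Slc7a9*, 0.796 with *Slc6a20a* and 0.713 with *Slc6a19*. It was lower with *Slc7a7* (0.434), *Slc3a2* (0.241), *Slc36a1* (0.163) and *Slc7a8* (0.0717).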

How the data were processed

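RNA-seq of 10 organoid libraries was analysed. Per the methods of the study, the authors aligned reads by TopHat, obtained gene counts from HTSeq and derived FPKM from these; the submitters' processing notes give build GRCm38.p6. The deposited counts per gene are whole numbers and not normalized. For the members, the deposited FPKM equal counts per library total and per gene length, but with lengths that differ from the listed ones for 7 of the 10. With the listed lengths, 37.8% of all deposited FPKM values compared lay within 1% of this ratio, and 27 of 89 member values did. Columns with the authors' own comparisons (group read counts, fold changes, p-values) and group mean FPKM were not used. Of 47074 lines, 5 without a gene ID were left out.

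Tests used R 4.3.3 and edgeR 4.0.16 (filterByExpr, TMM, quasi-likelihood fit with 5 group means, Benjamini-Hochberg over 16179 genes, threshold 0.05). Levels are normalized CPM; folds against a group with 3 counts or fewer in each library were computed against 3 counts. Alternatives were DESeq2 1.42.0, library size only, no filter, only the groups compared, a replicate block, thinned counts, limma 3.58.1 on log2(FPKM + 1) or log2(FPKM + 0.1), and each library left out; the FPKM lengths were added after the data were seen. Positions and overlaps come from the table and from GENCODE M21 on GRCm38, and promoters from RefSeq (GRCm38.p6), matched by symbol for 10 of 10 members. The named genes were the members, the genes of the lists, and the 3 genes most alike to each member; some of these are not reported here. The members and lists were chosen with earlier results of these data known. The fits were also run on simulated data with a constant spread and a small set of changed genes. These data differ from that in both respects, so that run does not check the calls made here. Figures were drawn with matplotlib 3.10.9 in Python 3.11.15, and tables made with NumPy 2.4.6 and pandas 2.3.3.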

Additional observations from a re-analysis of the deposited data

Results flagged for a closer look

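The difference between DMBA+TAM and TAM long differed from that between DMBA and control for 5 members, by edgeR's test of this interaction, adjusted over all genes. The log2 interaction was 9.10 for *Slc7a8*, 5.28 for *Slc7a7*, 4.66 for *Slc3a2* and 2.90 for *Slc36a1*. For *Slc1a1* the adjusted p was 0.00195, and no fitted value is given because DMBA+TAM had no count. Across all genes 48.2% passed this test, as did 8 of 8 macrophage and 9 of 10 fibroblast markers in the positive direction, and the groups differ also in the letter of their library titles, so an effect of DMBA cannot be told apart here. Groups of 2 were too small for a test of single libraries that stand apart.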

How the results depend on the processing

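Of 560 log2 fold changes of members under alternatives other than leaving out a library, 526 kept their direction and their side of the threshold, 23 passed it newly, 3 no longer passed and 8 changed sign; of 296 with a library left out, these numbers were 269, 5, 11 and 11. Those that changed sign had not passed the threshold. Left out of these numbers was any comparison using a group where the member had 3 counts or fewer in both libraries. That was so for 6 members in DMBA+TAM. *Slc36a1* in DMBA+TAM against DMBA was 0.0643 with library size only, 0.10 with limma on log2(FPKM + 1) and 0.11 with log2(FPKM + 0.1), and -0.54 to 0.35 with a library left out. *Slc7a8* in DMBA+TAM against TAM short was -0.32 to 0.48 with a library left out. In TAM long against DMBA, *Slc6a19* was -0.0133 with thinned counts, *Slc6a20a* -0.0387 with limma on log2(FPKM + 0.1), and *Slc3a2* -0.00149 with no filter, -0.12 with thinned counts and -0.000673 with only the groups compared; with a library left out the ranges were -1.37 to 0.55 for *Slc15a1*, -1.40 to 1.32 for *Slc6a20a*, -0.19 to 2.72 for *Slc7a9*, -0.33 to 0.86 for *Slc3a1*, -0.36 to 0.0383 for *Slc7a7* and -0.0387 to 0.044 for *Slc3a2*. In that comparison 2 members were called by DESeq2 and 4 with no filter, against 0, and 0 to 3 with a library left out (3 without DMBA replicate 1). The interaction called 8 members with limma on log2(FPKM + 1), against 5. In TAM short against control 3 to 4 of 6 calls passed with a library left out (3 without control replicate 2 or either TAM short library). The cause of these changes was not tested. Scaling by library size only moved the median of all genes in DMBA against control from 0.07 to 0.38, and 9 members still fell. Samples share only a replicate number (correlation of replicate differences between groups from -0.041 to 0.26); with the replicate block the members called were 9, 10, 6 and 10 for DMBA, TAM long, TAM short and DMBA+TAM against control, as without it. The depth of DMBA+TAM limits what can be seen there to about 1.32 to 1.58 CPM.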
